A study of Rattus norvegicus with 3 samples.

Results

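The kinesin, cytoplasmic dynein and dynactin motor genes were taken from a table of group expression values in the rat spinal cord with and without a contusion. A gene was counted as a motor gene when its symbol began with KIF followed by a digit or C, with KLC or DCTN followed by a digit, or with DYNC or DYNL. This gave 60 of the 12771 entries, namely 33 kinesin heavy chain genes, 3 kinesin light chain genes, 17 dynein chain genes and 7 dynactin entries. The rule reads symbols alone, but the members and the gene lists used below were chosen with earlier results of these data known.

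Both groups consisted of female Sprague Dawley rats, 3 months old, and both had a laminectomy at thoracic level T9. The No-SCI group had the laminectomy alone, and the SCI group also received a moderate to severe contusion of the exposed cord. At 24 h, about 2 mm of cord just above the injury, at T8, was digested in the cold with a bacterial protease, the cells were spun down, and RNA in the supernatant was sequenced after removal of ribosomal RNA. By the sample labels there were 2 libraries without and 1 with the contusion, while the study's methods speak of 2 animals per condition. The values are FPKM, read fragments scaled by transcript length and by the number of mapped reads, given by the authors as 1 group value for No-SCI and 1 for SCI. Since single libraries and read counts are not given, the depth behind a value and the spread between animals are unknown, no SD or n can be attached to a value, and no test of a difference could be made. Every difference below is therefore a difference between the group values, with no replicate check, and log2 ratios are of SCI to No-SCI.

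Kinesins and dynein use ATP to walk along microtubules. In an axon, microtubules point their plus ends away from the cell body, so that kinesins, most of which walk to the plus end, carry vesicles, mitochondria and RNA granules outward. Cytoplasmic dynein 1 walks to the minus end and, with its activator dynactin, returns signalling endosomes and lysosomes to the cell body. Another set of kinesins builds and moves the mitotic spindle and is made mainly in dividing cells, and dynein 2 works inside cilia.

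Of the 60 motor genes, 43 (71.7%) had a lower value after SCI and 17 a higher one, where 56.3% of all entries were lower. At least 2-fold lower were 9 members (15%), against 12.1% of all entries, and at least 2-fold higher was 1, DYNLT4, against 7.96% of all entries. The 9 were KIF21B, KIF17, KIFC2, DYNC1LI2, KLC2, DYNC1I1, KIF5A, DYNLRB2 and KIF6. DYNLRB2 and KIF6, the lowest of these in level, were under 2-fold with a pseudocount of 1 FPKM (log2 ratios −0.89 and −0.64), and KIF6 also with the median of all entries centred at 0 (−0.93). The median log2 ratio of the members was −0.31, and that of all entries was −0.12. The direction of small differences depends on scaling. With the median of all entries centred at 0, 36 of the 60 were lower, against 50% of all entries, and 7 members changed sign. The share of members at least 2-fold lower thus lay near the background.

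**Figure D1:**
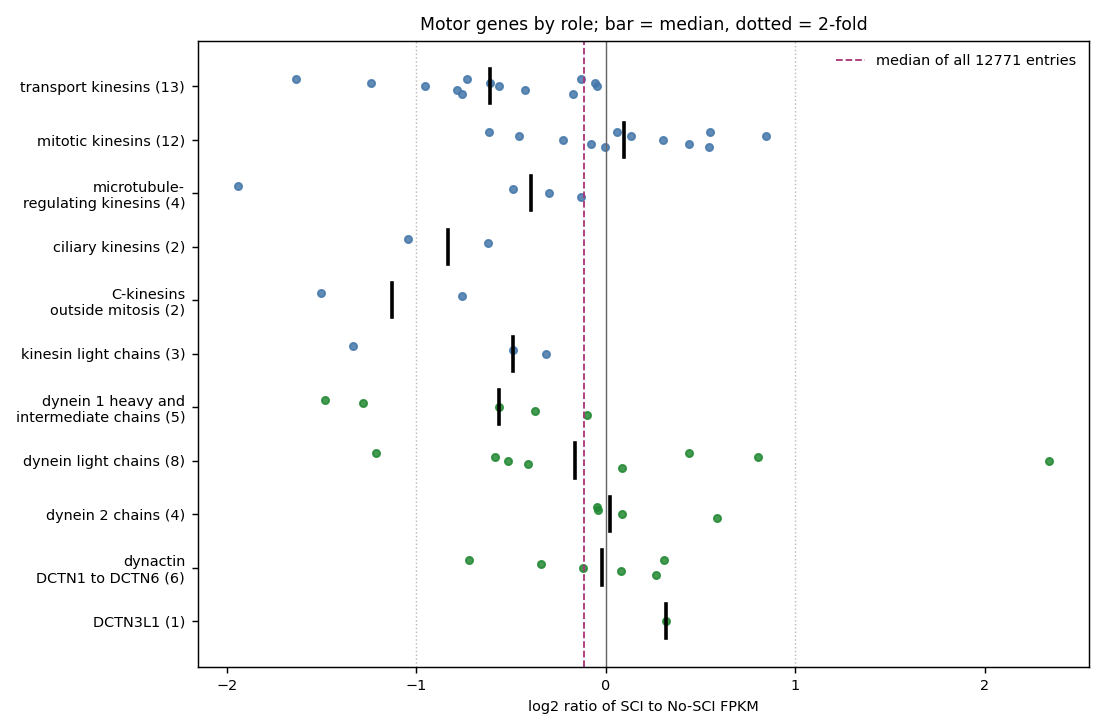
Log2 ratio of SCI to No-SCI FPKM (horizontal axis) of each of the 60 motor genes, grouped by role, with the number of genes in parentheses. Black bars are medians over the genes, dotted lines mark 2-fold and the dashed line marks the median of all entries, −0.12; the 13 transport kinesins all lie left of 0, with a median of −0.61, and the 12 mitotic kinesins lie on both sides, with a median of 0.10.

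By role, all 13 transport kinesins (kinesin-1, kinesin-2 and kinesin-3), all 3 kinesin light chains, both C-kinesins outside mitosis and all 5 heavy, intermediate and light intermediate chains of dynein 1 were lower after SCI. Under the 3 scalings tried (centred median, equal totals and equal upper quartiles), KIF13A, KIF16B and DYNC1LI1 moved to the other side of 0 at least once, and the other genes of these roles stayed lower. The mitotic kinesins, dynein 2, the dynein light chains and dynactin were split between higher and lower.

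The groups differed in the markers of cell types. The RNA is that of the supernatant, which the paper describes as acellular and enriched for axonal RNA. Fewer cells of a type, less RNA per cell and less of their RNA in the supernatant cannot be told apart. Of 15 neuronal markers, 13 had a row, 8 of them lower and 5 at least 2-fold lower, with a median log2 ratio of −0.44. Their summed level was 2105 FPKM in No-SCI and 1972 in SCI, of which GAP43 gave 1275 and 1406 FPKM, and the other 12 summed to 830 and 566 FPKM. SNAP25 and NEFM had no row among those analysed here. Of 15 oligodendrocyte markers 14 had a row and 12 were lower, 8 at least 2-fold, with a median log2 ratio of −1.37. CRYAB, at 3394 and 7532 FPKM, was the 1 marker at least 2-fold higher. The summed level was 93773 against 56584 FPKM, of which MOBP gave 44200 and 27648 FPKM and BCAS1 36068.5 and 18311.2 FPKM. MBP had no row. Of 12 astrocyte markers 7 had a row, all lower and 6 at least 2-fold, with a median of −1.42 and a sum of 14048 against 8922 FPKM, and the defining GFAP, AQP4, S100B, SLC1A3 and ALDOC had none. The 12 microglia and macrophage markers were split, 6 lower and 6 higher, 3 and 2 of them at least 2-fold, with a median of 0.13 and sums of 1242 and 1417 FPKM. All 12 meningeal fibroblast markers were higher, 11 of them at least 2-fold, with a median of 2.75 and a sum of 77.4 FPKM in No-SCI and 943 in SCI. Of all entries, 56.3% were lower, 12.1% at least 2-fold lower and 7.96% at least 2-fold higher. The part of the marker shifts in the motor gene values was not tested.

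Kinesin-1 is the main carrier of outward axonal transport, built from heavy chains of the KIF5 genes, with the motor domain, and light chains of the KLC genes, which bind cargo. KIF5B, the heavy chain made in nearly all tissues, had the highest level of any kinesin heavy chain, 392 FPKM in No-SCI and 257 in SCI (log2 ratio −0.61). KIF5C, made mainly in neurons, was at 57.2 and 33.3 FPKM (−0.78). KIF5A, the neuronal heavy chain in which mutations cause hereditary spastic paraplegia, was at 36.6 and 15.5 FPKM (−1.24). All heavy chains of kinesin-1 were thus lower, and the neuronal forms by more than KIF5B. KIF5A made up 7.54% of the summed KIF5 level in No-SCI and 5.07% in SCI, and KIF5B 80.7% and 84.1%.

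Among the light chains KLC1 was the most abundant motor gene in the table, at rank 27 of 12758 symbols in No-SCI and 39 in SCI, with 3922 and 3151 FPKM (log2 ratio −0.32). KLC2 went from 76.0 to 30.1 FPKM (−1.33, 2.52-fold lower) and KLC4 from 21.6 to 15.4 FPKM (−0.49). KLC3 had no row. KLC1 was 9.996 times the level of KIF5B in No-SCI and 12.3 times in SCI, although light and heavy chains pair in the motor. The levels of 41 members, KLC1 among them, carry 7 significant digits, 1 more than a Cuffdiff estimate prints, so that a value may be a sum over several entries of a symbol. Whether this sets the level of a gene relative to others was not tested.

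Kinesin-2 moves cargo in axons and builds cilia. KIF3A and KIF3B form its usual pair of motor subunits, and KIF3C takes the place of KIF3B in some neurons. KIF3A stood at 94.7 FPKM in No-SCI and 83.9 in SCI (log2 ratio −0.17), and KIF3B at 47.5 and 24.5 FPKM (−0.96), just short of 2-fold. KIF3C had 6.04 and 3.57 FPKM (−0.76). The partners of the KIF3 motor therefore differed in their ratios, and KIF3A took 63.9% of the summed KIF3 level in No-SCI and 74.9% in SCI. KIF17, a homodimeric kinesin-2 known for carrying glutamate receptor subunits in dendrites, was at 34.0 and 10.97 FPKM (−1.63, 3.10-fold lower), the lowest ratio among the transport kinesins.

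Kinesin-3 motors carry synaptic vesicle precursors, dense core vesicles and endosomes. KIF1B was at 187 FPKM in No-SCI and 140 in SCI (log2 ratio −0.43), and KIF1A, the main axonal carrier of synaptic vesicle precursors, at 73.0 and 49.4 FPKM (−0.56). KIF1C was at 40.5 and 36.9 FPKM (−0.13). KIF1A held 24.3% of the summed KIF1 level in No-SCI and 21.9% in SCI, a smaller shift than within KIF3. KIF16B, a motor of early endosomes, differed little, with 14.3 and 13.9 FPKM. KIF13A and KIF13B were among the lowest kinesins, at 2.47 and 2.74 FPKM in No-SCI and 2.38 and 1.65 in SCI. These values are close to 1, below which no value in the table goes, and the log2 ratio of KIF13B moved from −0.73 to −1.42 when 1 was subtracted from every value.

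Kinesins that act on the microtubule itself gave the lowest ratio of all members. KIF21B, a kinesin-4 motor of neurons that limits microtubule growth, was at 22.5 FPKM in No-SCI and 5.87 in SCI (log2 ratio −1.94, 3.83-fold lower). Its paralog KIF21A, which holds down microtubule growth at the cell cortex, was at 139 and 98.8 FPKM (−0.49). The share of KIF21B in the pair was 14.0% in No-SCI and 5.61% in SCI. KIF26A, which binds microtubules without walking, was at 5.25 and 4.27 FPKM. KIF2A, a depolymerase that trims collateral branches of axons, was at 1.61 and 1.47 FPKM, at percentile 2.66 of all entries in No-SCI. KIF26B had no row.

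The C-kinesins carry their motor domain at the other end of the protein and walk to the minus end. KIFC2, made mainly in neurons, was at 48.7 FPKM in No-SCI and 17.2 in SCI (log2 ratio −1.501, 2.83-fold lower). KIFC3 was at 91.6 and 54.2 FPKM (−0.76). The C-kinesin of the mitotic spindle, KIFC1, lay on the other side, at 25.7 and 34.8 FPKM (0.44).

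**Figure D2:**
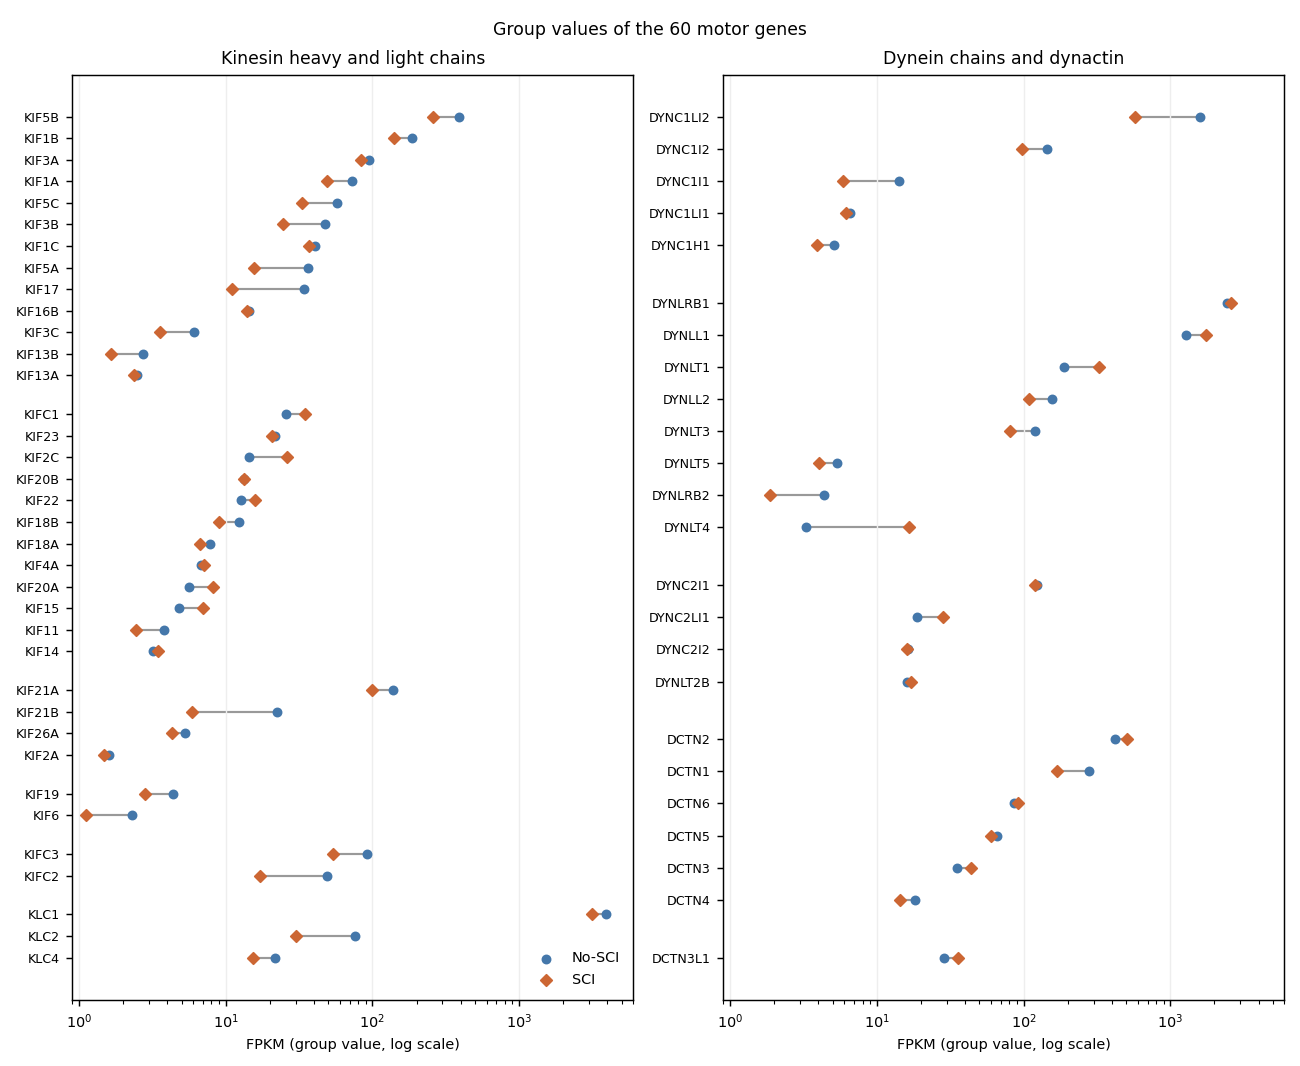
Group values in FPKM (horizontal axes, log scale) of the 60 motor genes, kinesins and their light chains at the left and dynein chains and dynactin at the right, in blocks by role and ordered by the No-SCI level. Circles are No-SCI and diamonds SCI, 1 value each; KLC1 is the highest, at 3922 and 3151 FPKM, and the widest gaps are those of DYNLT4, KIF21B and KIF17.

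Of 14 mitotic kinesins listed 12 had a row, and their levels were low, from 3.18 to 25.7 FPKM in No-SCI and from 2.47 to 34.8 in SCI. None was 2-fold higher or lower, against 7.96% and 12.1% of all entries. Of the 12, 7 were higher and 5 lower (41.7%, against 56.3% of all entries), and the median log2 ratio was 0.10. With the median of all entries centred at 0, KIF20B and KIF23 were higher too. KIF2C, which removes faulty microtubule attachments at centromeres, was at 14.5 and 26.0 FPKM (0.84). KIF15 (4.79 and 7.02 FPKM, log2 ratio 0.55) and KIF20A, a motor of cytokinesis (5.64 and 8.21 FPKM, 0.54), came next. KIF11, the motor that pushes the spindle poles apart, was lower, at 3.78 and 2.47 FPKM (−0.62). KIF18B (−0.46) and KIF18A (−0.23), which shorten spindle microtubules, were lower too. KIF20B was at 13.3 FPKM in both groups and KIF23, a part of centralspindlin, at 21.7 and 20.6 FPKM, while KIF22, KIF14 and KIF4A had ratios of 0.30, 0.13 and 0.06. Of 28 other proliferation genes 27 had a row, 17 higher and 10 lower (37.0%, against 56.3% of all entries), with a median log2 ratio of 0.13. Only 1, CCNA2, was at least 2-fold higher, against 7.96% of all entries, and none was at least 2-fold lower, against 12.1%.

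The role contrast was set beside the promoters, since many cell cycle genes carry a cell cycle genes homology region, TTTGAA, often near a CCAAT box. The sequences are those of RefSeq on the GRCr8 assembly, which had an entry for 48 of the 60 members, and the 250 bases before each gene's start were searched on both strands. TTTGAA occurred before 5 of 11 mitotic kinesins (45.5%), 0 of 11 transport kinesins, 7 of the 48 members (14.6%) and 16% of all 27457 promoters. CCAAT occurred before 7 of 11 mitotic kinesins (63.6%), 3 of 11 transport kinesins (27.3%) and 34.3% of all promoters. These matches are a description of the letters and not of bound sites. The matches before mitotic kinesins follow, 1 for each gene, with the motif, or its reverse complement TTCAAA, in capitals, 10 bases on each side, 5′ to 3′ on the gene's strand, to let the flanks be compared.
KIF15, chr8:131479348-131479373, + strand: cggcgccaagTTCAAAtctgcggcca
KIF20B, chr1:241840890-241840915, + strand: ccaccccaggTTTGAAagtcttttcc
KIF22, chr1:191080879-191080904, − strand: accccggcaaTTCAAAagagagaagc
KIF23, chr8:71320648-71320673, − strand: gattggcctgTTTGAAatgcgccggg
KIFC1, chr20:5000897-5000922, + strand: acggttgaaaTTCAAAagtggcgggt
The motif began 46, 116, 16, 79 and 22 bases before the start, in this order, and KIF15 held another match at 249 bases. The log2 ratios of these genes ran from −0.08 for KIF23 to 0.55 for KIF15. Those of the mitotic kinesins not listed here, not all of which had a promoter entry, ran from −0.62 for KIF11 to 0.84 for KIF2C.

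The difference of the median log2 ratios, mitotic minus transport kinesins, was 0.71 (0.10 against −0.61). A scale factor shared by all genes of a group cancels in this difference, so the scalings could not change it. The difference was 0.63 with a pseudocount of 1 FPKM and 0.77 over entries with a mean of at least 5 FPKM. The sets overlapped: 8 of the 12 mitotic kinesins lay above the highest transport kinesin, KIF16B, and KIF11, the lowest mitotic kinesin, lay just below the transport median. KIF16B itself was mid-range, as 54.0% of all entries had a lower log2 ratio and nearly all others a higher one. The levels of the sets also differed, with a No-SCI median of 40.5 FPKM for transport and 10.1 FPKM for mitotic kinesins.

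Cytoplasmic dynein 1 is built around the heavy chain DYNC1H1, which holds the motor, with intermediate and light intermediate chains that bind cargo adaptors. DYNC1H1 was at 5.08 FPKM in No-SCI and 3.93 in SCI (log2 ratio −0.37). The light intermediate chain DYNC1LI2 stood at rank 98 in No-SCI and 330 in SCI, with 1595 and 571 FPKM (−1.48), whereas DYNC1LI1 was at 6.55 and 6.12 FPKM (−0.10). The intermediate chain of neurons, DYNC1I1, was at 14.2 and 5.85 FPKM (−1.28, 2.43-fold lower), and the form of most tissues, DYNC1I2, at 144 and 97.4 FPKM (−0.57). As in kinesin-1, the neuronal form had the lower ratio, and the share of DYNC1I1 in the pair was 8.97% in No-SCI and 5.67% in SCI. DYNC1LI2 was 314 times the level of DYNC1H1 in No-SCI and 145 times in SCI, although both are subunits of 1 complex. The value of DYNC1LI2 carries 7 significant digits and may be a sum over several entries, while that of DYNC1H1 carries 6.

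The dynein light chains included the highest levels of the dynein genes and ratios of either sign. DYNLRB1, of the roadblock family, was at 2444 FPKM in No-SCI and 2589 in SCI (log2 ratio 0.08), and DYNLL1, a hub protein that also binds many partners outside dynein, at 1284 and 1744 FPKM (0.44). DYNLL2 went the other way, with 157 and 110 FPKM (−0.52). The share of DYNLL1 in the pair was 89.1% in No-SCI and 94.1% in SCI.
The Tctex family showed the same kind of split. DYNLT1 was at 188 FPKM in No-SCI and 328 in SCI (0.80) and DYNLT3 at 120 and 80.4 FPKM (−0.58). The share of DYNLT1 in the sum of DYNLT1 and DYNLT3 was 61.0% and 80.3%, or 59.3% and 76.5% with DYNLT4 and DYNLT5 counted too. The first was the widest shift of the 10 families compared, except that the share of KIF13A in its low pair shifted by 22 points when 1 was subtracted from every value. DYNLT4 was at 3.27 and 16.5 FPKM (2.34, 5.05-fold higher), the one member past 2-fold upward, and DYNLT5 at 5.32 and 4.004 FPKM. The No-SCI value of DYNLT4 is low, and its log2 ratio was 2.04 with a pseudocount of 1 FPKM and 2.77 with 1 subtracted from every value. DYNLRB2, found in ciliated cells, was at 4.35 and 1.88 FPKM (−1.21). The 4 light chains with lower and the 4 with higher values gave a median log2 ratio of −0.16. It turned to 0.26 when only entries with a mean of at least 5 FPKM were kept, and the mean over the genes was 0.12.

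**Figure D3:**
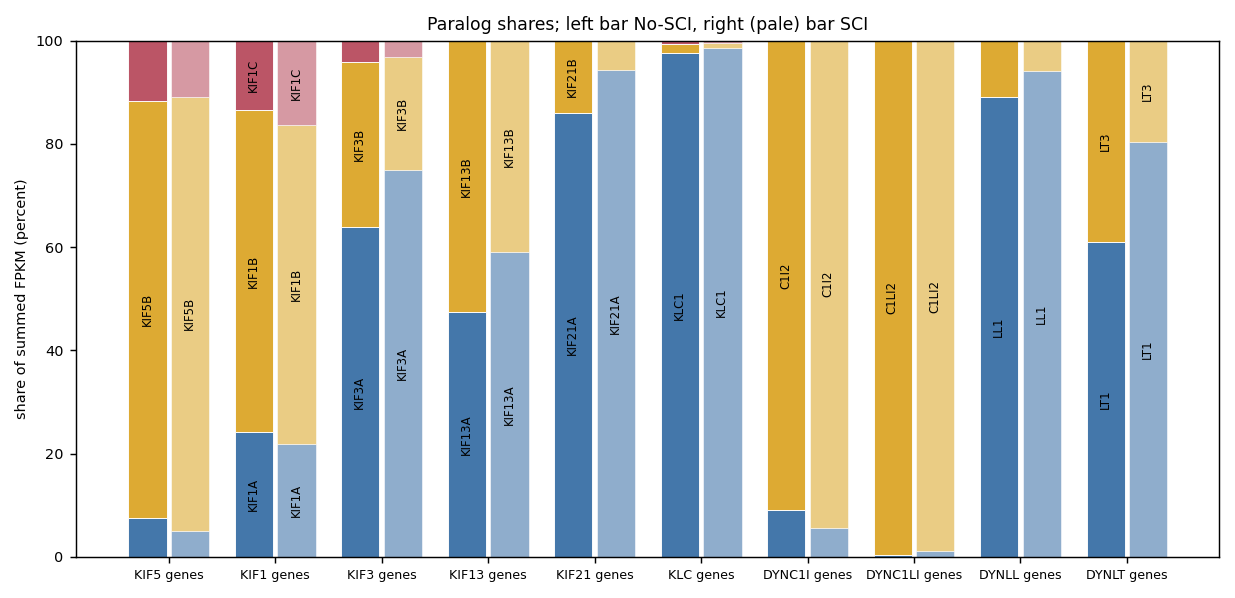
Share of each paralog in the summed FPKM of its family (vertical axis, percent), with the No-SCI group in the left bar and the SCI group in the paler right bar of each family. Labels inside the bars name the paralog, without the letters DYN for dynein genes; the share of DYNLT1 in the pair with DYNLT3 is 61.0% and 80.3%, that of KIF3A 63.9% and 74.9%, and that of KIF21A 86.0% and 94.4%.

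Dynein 2 returns material along cilia. Of its chains, DYNC2I1 was at 123 FPKM in No-SCI and 119 in SCI, DYNC2I2 at 16.4 and 15.96 FPKM, and DYNLT2B at 16.1 and 17.02 FPKM. DYNC2LI1 was at 18.8 and 28.3 FPKM (log2 ratio 0.59), higher in SCI. DYNC2I1 and DYNC2I2, with ratios of −0.05 and −0.04, were on the higher side of 0 after centring. DYNC2H1, the heavy chain, had no row. The ciliary kinesins KIF6 (2.30 and 1.12 FPKM, −1.04) and KIF19 (4.34 and 2.82 FPKM, −0.62) were lower, and the SCI value of KIF6 is close to 1 as well. With 1 subtracted from every value the log2 ratio of KIF6 became −3.49, and the median of the pair moved from −0.83 to −2.19. Of 20 motile cilium markers 8 had a row, 5 lower (62.5%, against 56.3% of all entries) and 3 higher. None was at least 2-fold lower and 2 were at least 2-fold higher, against 12.1% and 7.96% of all entries. The summed levels were 471 and 493 FPKM, of which TPPP3 alone gave 445 and 458 FPKM, and the defining FOXJ1 had no row.

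Dynactin links dynein to cargo. DCTN1, the p150Glued subunit that grips the microtubule and that is mutated in a motor neuron disease, was at 281 FPKM in No-SCI and 170 in SCI (log2 ratio −0.72). DCTN2, the dynamitin subunit of the shoulder, was at 422 and 506 FPKM (0.26), so that DCTN2 was 1.504 times DCTN1 in No-SCI and 2.98 times in SCI. DCTN3, of the shoulder as well, was at 35.4 and 43.8 FPKM (0.31). DCTN3L1, named as a DCTN3-like gene, was at 28.5 and 35.6 FPKM (0.32), and reads shared by near-identical copies cannot be told apart in these values. The pointed-end subunits DCTN4, DCTN5 and DCTN6 had log2 ratios of −0.34, −0.12 and 0.08. The median over DCTN1 to DCTN6 was −0.02 and turned to 0.10 with the median of all entries centred at 0. Of the 6 dynactin subunits with other names 5 were lower (83.3%, against 56.3% of all entries). None passed 2-fold, against 12.1% of all entries lower and 7.96% higher. CAPZB, the capping protein subunit with the highest level, was at 859 and 1108 FPKM, and CAPZA2 and ACTR1A, which forms the filament, at 190 and 131 and at 222 and 187 FPKM.

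Plus-end motors were compared with minus-end motors. The plus-end set held 25 genes, namely the 13 transport kinesins, KIF21A, KIF21B and 10 mitotic kinesins, without KIF2C and KIFC1. In it 20 genes had a lower SCI value (80%, against 56.3% of all entries), and the median log2 ratio was −0.43. The minus-end set held 18 genes, namely KIFC1, KIFC2, KIFC3 and the dynein 1 and dynein 2 chains and light chains with a row, without DYNLT4 and DYNLT5. In it 12 genes were lower (66.7%, against 56.3% of all entries), with a median of −0.23. With the median of all entries centred at 0, 16 plus-end and 9 minus-end genes were lower, against 50% of all entries. The difference, plus-end minus minus-end, was −0.19, and it turned to 0.15 without mitotic kinesins, dynein 2 and the dynein light chains. The group values thus give no direction of a difference between the polarities that holds across these sets. At least 2-fold lower were 3 plus-end genes (12%) and 4 minus-end genes (22.2%), against 12.1% of all entries. With DYNLT4 and DYNLT5 added, a choice made after the values were seen, the minus-end set held 20 genes, 13 of them lower and 4 at least 2-fold lower (20%), and DYNLT4 was the 1 gene at least 2-fold higher.

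Adaptors choose the cargo of a motor and switch it on. Of 21 kinesin adaptors and regulators, all with a row, 18 were lower (85.7%, against 56.3% of all entries) and 6 at least 2-fold lower (28.6%, against 12.1%), with a median log2 ratio of −0.72 and none 2-fold higher. The JIP scaffolds, which join kinesin-1 to vesicles and kinases, were all among those 6. MAPK8IP3 was at 60.9 FPKM in No-SCI and 16.9 in SCI (−1.85), MAPK8IP2 at 8.35 and 2.72 FPKM (−1.62), SPAG9 at 193 and 74.1 FPKM (−1.38) and MAPK8IP1 at 168 and 67.3 FPKM (−1.32). TRAK2, which ties mitochondria to motors, was at 1622 and 470 FPKM (−1.79). Its partner on the mitochondrion, RHOT1, was at 28.1 and 28.5 FPKM. MADD, which links KIF1A and KIF1B to their vesicles, was at 26.1 and 12.4 FPKM (−1.07). FEZ1 and FEZ2, by level the next after TRAK2, were at 919 and 511 and at 295 and 307 FPKM.

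The dynein adaptors and regulators were split. JIP and TRAK proteins can also act with dynein, but their genes were counted with the kinesin adaptors only. The medians of both lists depend on this placing, and another placing was not tested. Of 15 listed 11 had a row, 6 of them lower (54.5%, against 56.3% of all entries) and 2 at least 2-fold lower (18.2%, against 12.1%). The median log2 ratio was −0.02. It turned to 0.10 with the median of all entries centred at 0 and was −0.34 over entries with a mean of at least 5 FPKM. The mean over the genes was −0.27. HAP1, the huntingtin partner, was at 31.9 FPKM in No-SCI and 10.01 in SCI (−1.67), and PAFAH1B1, the LIS1 regulator of dynein, at 57.1 and 27.9 FPKM (−1.03). NDEL1 and NDE1, which bring LIS1 to dynein, were at 130 and 133 and at 98.5 and 94.9 FPKM. Of 7 plus-end tracking proteins 6 had a row, 5 were lower (83.3%, against 56.3% of all entries) and 3 at least 2-fold lower (50%, against 12.1%). CLIP2 was at 74.9 and 18.4 FPKM (−2.02), CLASP2 at 418 and 142 FPKM (−1.56) and MAPRE3, the neuronal EB protein, at 51.3 and 23.9 FPKM (−1.10). MAPRE1, found in all cells, was at 569 and 470 FPKM (−0.27).

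**Figure D4:**
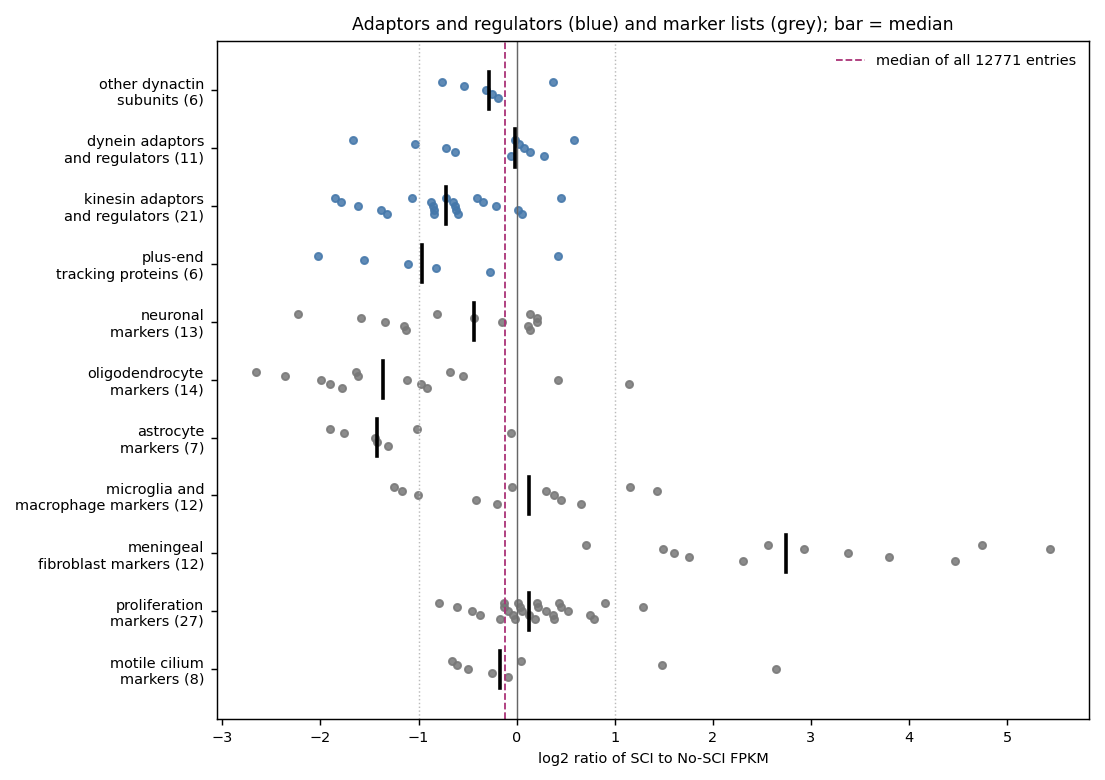
Log2 ratio of SCI to No-SCI FPKM (horizontal axis) of the genes of 4 lists of adaptors and regulators, in blue, and 7 marker lists, in grey, with the number of genes with a row in parentheses. Black bars are medians and dotted lines mark 2-fold; the kinesin adaptors have a median of −0.72, the dynein adaptors of −0.02, and the meningeal fibroblast markers lie furthest to the right.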

How the data were processed

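RNA of the supernatant was sequenced from 2 No-SCI libraries and 1 SCI library, as the labels show. Reads were cut by the authors to the number in the smallest sample and aligned to rn6 with the Ensembl annotation by STAR 2.5.4b, and Cuffdiff (1.3.0) gave FPKM under upper quartile normalization. These deposited FPKM values come as 1 estimate per group and entry, with no counts, so that depth is unknown. No value lies below 1. The deposited table also holds the authors' own p-values, q-values and fold changes of SCI against No-SCI, which were not used. From the FPKM values the log2 ratio was computed without a pseudocount over all 12771 entries (12758 symbols, with the larger entry taken for the 13 listed more than once). A 2-fold difference was the limit for counts. All 60 members matched a RefSeq symbol. Every member may be named with both values, of pathway lists the 3 most abundant genes and those past 2-fold, and of marker lists the 3 most abundant and absent defining genes. RHOT1, CCNA2 and the motifs were chosen after the values were seen. GTTGCC, part of the X-box of ciliary genes, was searched too and is given with the other observations. The members and lists were chosen with earlier results of these data known. The computation of list medians and counts was checked on simulated data with known shifts, which tests the arithmetic and not how reliable the values are. Python 3.11.15, numpy 2.4.6, pandas 2.3.3 and matplotlib 3.10.9 were used.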

Additional observations from a re-analysis of the deposited data

How the results depend on the processing

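No paired analysis was possible because the table holds 1 value per group and the labels of the groups share no replicate number, and for the same reason no replicate could be left out. As no spread is known, a log2 value was taken as moved when it shifted by 0.1 or more, and a count when it shifted by more than 1.5 times. The median log2 ratio of the members was −0.31 and became −0.19 with the median of all entries centred at 0, −0.20 with equal upper quartiles and −0.15 over entries with a mean of at least 5 FPKM. At a 1.5-fold minimum 18 members were lower and 4 higher (26.3% and 16.9% of all entries), and at a 3-fold minimum 2 were lower (3.27%). The difference between mitotic and transport kinesins became 0.83 with KIF21A, KIF21B, KIFC2 and KIFC3 added to the transport kinesins. The difference between plus-end and minus-end motors became −0.08 with means, −0.33 with dynactin and kinesin light chains added and 0.15 without mitotic kinesins, dynein 2 and dynein light chains. With DYNLT4 and DYNLT5 added to the minus-end motors, chosen after seeing the data, it was −0.19 as before. With 1 subtracted from every value 13 members moved, and with a pseudocount of 1 FPKM 9 members did. Under the subtraction KIF6 became −3.49 and the median of the ciliary kinesins −2.19. KIF21B became −2.14 under the subtraction and −1.77 with the pseudocount, and DYNLT4 became 2.77 and 2.04. With the median of all entries centred at 0, equal totals and equal upper quartiles, the median of DCTN1 to DCTN6 became 0.10, 0.02 and 0.08 and that of the dynein adaptors 0.10, 0.03 and 0.08, from −0.02, against −0.34 over entries of at least 5 FPKM and −0.27 as a mean. That of the dynein light chains became 0.26 over entries of at least 5 FPKM and 0.12 as a mean. Single genes that changed sign under centring and under equal upper quartiles were DYNC1LI1 (0.02 and 0.01), DYNC2I1 (0.07 and 0.05), DYNC2I2 (0.08 and 0.06), KIF13A (0.06 and 0.05), KIF16B (0.07 and 0.06), KIF20B (0.11 and 0.10) and KIF23 (0.04 and 0.02). With equal totals KIF20B became 0.04, KIF16B 0.0004 and DYNC2I2 0.0032. The cause of these changes was not tested beyond the construction of each alternative. A pseudocount of 0.1 FPKM and summing the entries of a repeated symbol changed no member by 0.1 or more.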

Other observations

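Subunits of 1 motor had very different FPKM values. In No-SCI the level of DYNLRB1 was 481 times that of the heavy chain DYNC1H1, that of DYNLL1 253 times and that of DYNC1I2 28.3 times. After SCI these ratios were 659, 444 and 24.8. KIF2A, at 1.61 FPKM in No-SCI, was the lowest of the 60 members in that group.

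GTTGCC, part of the X-box of ciliary genes, was found in the 250 bases before the start of 2 of 4 dynein 2 genes, 3 of 11 transport kinesins (27.3%) and 2 of 11 mitotic kinesins (18.2%), where 9.9% of all promoters hold it. TTTGAA was also found before DCTN1 and DYNLT5 among the members outside the mitotic set.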
